A study of Mus musculus with 11 samples.

Results

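Smchd1 peaks were examined at the 9 mouse Pax genes, Pax1 to Pax9, chosen by name from the 21779 coding genes of the RefSeq table for mm10; all 9 were found. Smchd1, a non-canonical SMC protein, binds chromatin and is best known as a silencer of genes on the inactive X, of imprinted genes and of some gene clusters on other chromosomes. Its binding was mapped by ChIP-seq in neural stem cells grown from C57BL/6 embryos at day E14.5. Knock-in cells carried an allele encoding a Smchd1-GFP fusion on both copies, and an antibody to GFP pulled down the fusion protein. Wild-type cells without the tag were put through this pull-down too, as a control for the antibody, and whole cell extract was the input; the genotype of the input libraries was not given in the labels. In the sonication experiment, chromatin of female cells was broken by 30 min of sonication, and 2 knock-in, 2 wild-type and 2 input libraries were made. In the other experiment, chromatin was cut with micrococcal nuclease (MNase), an enzyme that digests the DNA between nucleosomes. It had 1 male and 1 female library in the knock-in group, 1 male and 1 female in the wild-type group, and 1 female input library. Each experiment ended in 1 deposited list of peak positions over all its libraries, of 2840 MNase peaks and 2196 sonication peaks. No value per library was analysed here, so depth and spread between replicates were unknown and no test between groups could be made. The files held no RNA, so the labelled cell type could not be checked against its markers.

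Pax genes encode transcription factors with a paired DNA-binding domain, which choose cell fates in the embryo. Close relatives form subfamilies: Pax1 with Pax9, Pax2 with Pax5 and Pax8, Pax3 with Pax7, and Pax4 with Pax6. Pax6 is the member used in neural stem cells of the forebrain and in the eye, while the others are best known from skeleton, pharynx, kidney, thyroid, B cells, neural crest, muscle and pancreas. Some of these also act in other parts of the nervous system, Pax2, Pax3 and Pax7 among them.

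MNase peaks lay at 5 of the 9 Pax genes and not at Pax6. A peak overlapped the gene span, by at least 1 bp, at Pax1, Pax2, Pax3, Pax5 and Pax9, where 4.13% of all coding genes had one. Widening the window to 5 kb on each side left 5 of 9, against 5.28% of coding genes, and widening it to 50 kb again left 5 of 9, against 11.3%. Pax4, Pax6, Pax7 and Pax8 had 0 MNase peaks in all 3 windows. The 5 genes with peaks lay on 5 different chromosomes and shared no peak. Every subfamily except that of Pax4 and Pax6 thus had a gene with peaks, and those of Pax3 and of Pax2 were split.

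**Figure D1:**
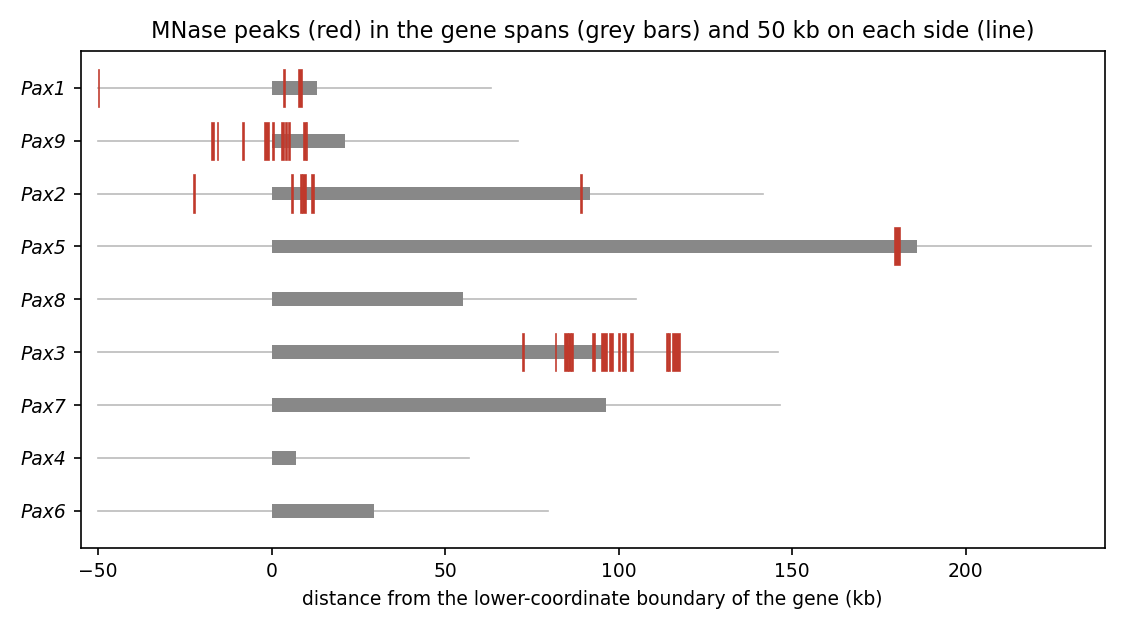
Each row is a Pax gene, with its span as a grey bar, 50 kb on each side as a line, and MNase peaks as red blocks to scale; the horizontal axis is the distance from the gene boundary with the lower coordinate, in kb. Most peaks crowd one end of Pax2 and Pax3 and the lower side of Pax9, and the rows of Pax4, Pax6, Pax7 and Pax8 have none.

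Promoter windows, from 250 bases before to 50 bases after a start site, came from RefSeq on GRCm38.p6, the assembly of mm10. The table held 10 windows for 7 of the Pax genes and none for Pax3 or Pax4. The sequences below show the start-site region of genes with MNase peaks at or beside it (Pax9, Pax2 and Pax1) and those of Pax6 for contrast. Capitals mark each CG dinucleotide, the site of DNA methylation in mammals; CG reads the same on both strands. All are written 5′ to 3′ on the strand of the gene, here the plus strand, at chr12:56695221-56695520 (Pax9), chr19:44755502-44755801 (Pax2), chr2:147364744-147365043 (Pax1), chr2:105668646-105668945 (Pax6, first window) and chr2:105682213-105682512 (Pax6, second window).
Pax9: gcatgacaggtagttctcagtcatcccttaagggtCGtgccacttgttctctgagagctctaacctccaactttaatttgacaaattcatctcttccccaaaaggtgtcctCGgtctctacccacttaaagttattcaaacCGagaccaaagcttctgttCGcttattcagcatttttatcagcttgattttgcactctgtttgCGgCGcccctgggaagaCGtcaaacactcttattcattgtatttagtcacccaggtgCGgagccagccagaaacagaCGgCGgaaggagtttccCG
Pax2: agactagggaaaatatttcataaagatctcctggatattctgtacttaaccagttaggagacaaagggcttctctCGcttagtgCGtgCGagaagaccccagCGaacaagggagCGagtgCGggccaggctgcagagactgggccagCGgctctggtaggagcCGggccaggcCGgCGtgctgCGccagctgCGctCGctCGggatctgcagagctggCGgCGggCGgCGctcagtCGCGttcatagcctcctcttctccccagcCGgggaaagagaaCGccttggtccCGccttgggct
Pax1: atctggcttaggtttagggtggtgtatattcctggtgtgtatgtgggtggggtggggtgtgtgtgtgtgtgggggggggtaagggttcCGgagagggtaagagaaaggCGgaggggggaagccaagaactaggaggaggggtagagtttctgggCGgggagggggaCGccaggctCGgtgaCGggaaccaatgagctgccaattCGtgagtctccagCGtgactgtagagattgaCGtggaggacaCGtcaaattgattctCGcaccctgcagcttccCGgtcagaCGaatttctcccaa
Pax6 first window: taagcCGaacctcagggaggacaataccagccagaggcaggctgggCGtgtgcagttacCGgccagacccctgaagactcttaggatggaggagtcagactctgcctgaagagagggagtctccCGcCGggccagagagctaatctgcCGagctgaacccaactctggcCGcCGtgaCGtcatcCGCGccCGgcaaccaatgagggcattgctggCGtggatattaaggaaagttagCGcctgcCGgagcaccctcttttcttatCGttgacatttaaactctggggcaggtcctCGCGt
Pax6 second window: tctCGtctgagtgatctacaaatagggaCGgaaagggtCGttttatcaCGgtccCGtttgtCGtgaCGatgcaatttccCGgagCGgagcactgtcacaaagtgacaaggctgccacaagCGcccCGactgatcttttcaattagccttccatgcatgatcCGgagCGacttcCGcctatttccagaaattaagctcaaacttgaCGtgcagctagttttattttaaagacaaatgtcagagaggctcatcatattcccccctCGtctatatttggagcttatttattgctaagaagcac

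An MNase peak overlapped 2 of the 10 Pax windows, where 0.858% of 32851 promoter windows were overlapped, and 4 of 10 had a peak within 500 bp, against 1.29%. The overlapped windows were that of Pax9, with 11 CG dinucleotides, and the printed one of Pax2, with 23. The window of Pax1 held 13 CG and lay 208 bp from a peak. A further Pax2 window, with 30 CG, lay 256 bp from the same peak that overlapped the printed Pax2 window. The 4 windows thus belong to Pax1, Pax2 and Pax9 only, and are not independent. Pax6 windows held 18 and 16 CG, and the nearest MNase peak was 418 and 404 kb away. Such CG counts are common: 29.7% and 33% of all windows held at least as many, while 0.858% overlapped an MNase peak. Pax5 had 23 CG and a peak 4.95 kb away, and Pax7 had 17 CG with its nearest peak 230 kb away. The fewest CG, 7 each, were in the first Pax2 window and in that of Pax8, with a peak 5.70 kb and 2488 kb away. CG was found in 94.6% of all windows, with a median of 7 per window. That median was 20 in the 282 windows overlapped by an MNase peak and 7 in the other 32569. No sonication peak overlapped a Pax window, and 0.0761% of all windows were overlapped by one.

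**Figure D2:**
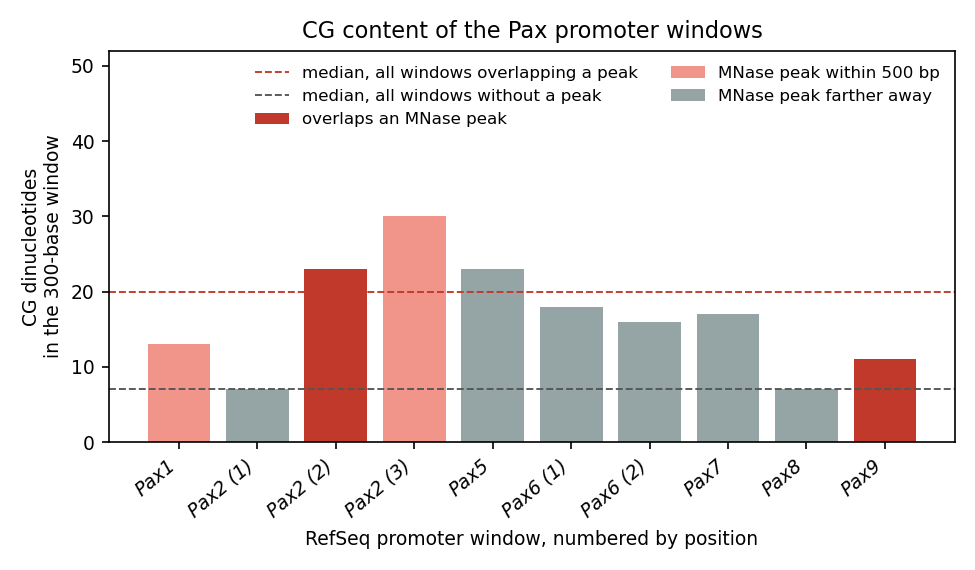
Bars give the number of CG dinucleotides in each RefSeq promoter window of the Pax genes, coloured by the distance to the nearest MNase peak; dashed lines are the medians over all windows that overlap an MNase peak (20) and those that do not (7). The 2 Pax6 windows, with 18 and 16 CG, stand between the lines and are coloured as far from a peak.

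Pax1 and Pax9, the pair known for the vertebral column, the pharyngeal pouches and the thymus, both carried MNase peaks. Pax9, a gene of 21.1 kb on chromosome 12 (56691693 to 56712824), had 6 peaks in its span, 7 within 5 kb and 10 within 50 kb. Peaks covered 17.7% of the span, the highest share in the family. The start site at 56695471 lay between a peak of 900 bp, 121 bp away, and one of 600 bp, 180 bp away. The widest at Pax9, of 1350 bp, began at 56689501 and ended 843 bp below the gene, over the non-coding RNA gene Gm15524. From the first to the last, the 10 peaks spanned 27.8 kb, of which 25.9% was in peaks. All lay below or in the lower part of the gene, and the next MNase peak above it was 787 kb away.

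The neighbourhood of Pax9 was also the richest of the family: 23 MNase peaks lay within 500 kb of it, the 10 above included. Nkx2-1, the homeobox gene of thyroid, lung and ventral forebrain, lay 155 kb below and had 4 peaks within 5 kb. Its relative Nkx2-9, 78.1 kb below, had 1, and Mbip, at 346 kb, had 1. These neighbours were named after their values were seen. Pax1, of 13.1 kb on chromosome 2 (147361930 to 147375049), had 2 peaks, both inside the gene, which covered 13.7% of it. The one of 600 bp lay 257 bp past the start site, at 147365251 to 147365850, and the one of 1200 bp lay 4.46 kb past it. The remaining peak, of 300 bp and 49.6 kb below the gene, was in the non-coding RNA gene Nkx2-2os. Counted over the span and 5 kb on each side, Pax9 had 225 MNase peaks per Mb and Pax1 had 86.5.

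Pax2, Pax5 and Pax8, the subfamily of kidney, thyroid, midbrain-hindbrain boundary and B cells, ranged from 5 peaks to 0. Pax2, which directs formation of kidney, optic stalk and ear, spans 91.7 kb of chromosome 19 (44746601 to 44838269) and had 5 MNase peaks, all inside it. Of these, 4 stood within 6.60 kb near its lower end, with widths of 450, 450, 900 and 900 bp. One of the wider ones, 44755501 to 44756400, covered the start site at 44755752. The fifth peak, of 450 bp, lay 2.37 kb from the upper end, where the non-coding RNA gene 1700039E22Rik overlaps Pax2. A further peak of 600 bp lay 22.2 kb below the gene. Peaks covered 3.44% of the Pax2 span, with 49.2 peaks per Mb.

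Pax5, the gene of the B cell commitment factor, is the longest of the family at 186 kb (chromosome 4, 44524748 to 44710694) and had 1 MNase peak. That peak was wide, 1800 bp from 44703901 to 44705700, a width reached by 3.32% of autosomal MNase peaks. It lay 4.99 kb from the start site, over the non-coding RNA gene 5730488B01Rik. With 5.10 peaks per Mb and 0.968% of its span covered, Pax5 had the lowest values among the 5 genes with peaks. Pax8, the thyroid and kidney factor of 55.0 kb on chromosome 2 (24420551 to 24475599), had none, and its nearest MNase peak was 2489 kb away. Only 7.22% of coding genes were at least that far from a peak. Pax8 lay in an interval of 5.90 Mb without an MNase peak.

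Pax3 and Pax7, partners in the dorsal neural tube, neural crest and muscle progenitors, differed in the MNase list although their spans are nearly the same in length, 95.9 and 96.5 kb. Pax3, on chromosome 1 from 78101267 to 78197136, had 7 peaks in its span, 9 within 5 kb and 14 within 50 kb, the most of the family in each window. Pax7, on chromosome 4 from 139737059 to 139833530, had 0, and its nearest peak lay 134 kb below, in Iffo2. Of all coding genes, 78.5% were at least as far from an MNase peak as Pax7. Whether Pax3 and Pax7 differ beyond the error of either experiment was not tested, since no value per library was analysed here.

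Peaks at Pax3 were confined to one side. Below the lowest one, at 78173551, 72.3 kb or 75.4% of the span had none, and the next MNase peak below the gene was 1233 kb away. From that peak to the last, the 14 peaks spread over 45.3 kb, across the upper boundary, and filled 28.5% of it. The widest in the gene, 1.95 kb from 78196051 to 78198000, lay across the upper boundary. Adjoining peaks of 1050, 900 and 600 bp, with no gap between them, formed a stretch of 2.55 kb from 78185551 to 78188100 inside the gene. Outside it, peaks of 900 bp or less and one of 1050 bp followed to 78205350, a pair of them over the non-coding RNA gene Gm33152. The last group, 17.7 kb above the gene, held 3 peaks of 750, 600 and 2100 bp over the predicted coding gene Gm2102. These 3 of the 14 peaks thus also lay at another coding gene.

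Few genes had as many MNase peaks as Pax3. Of all coding genes, 21 (0.0964%) had 9 or more within 5 kb, 46 (0.211%) had at least the 7 of Pax9, and 83 (0.381%) had at least the 5 of Pax2. Outside the Pax family, 13 coding genes had 8 to 10 peaks. Nearest to Pax3 in length among them were Lin28b, a regulator of microRNA processing, of 110 kb with 8 peaks, and Plag1, a zinc-finger growth gene, of 39.7 kb with 8. They were followed by 4930447C04Rik with 10, the nuclear receptor gene Nr2f2 with 9 and Hoxc9 with 10, of 37.8, 14.8 and 7.41 kb. Pax3 had 85.0 peaks per Mb, Lin28b 66.8 and Hoxc9 574, so that a like number of peaks stood at very unlike density.

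**Figure D3:**
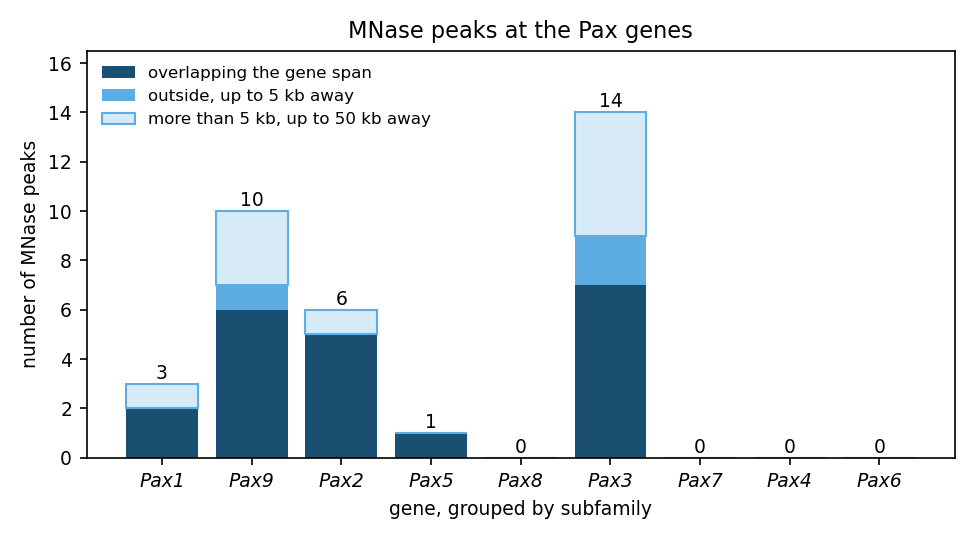
Stacked bars count the MNase peaks at each Pax gene, split into those overlapping the gene span, those outside it up to 5 kb away, and those from 5 to 50 kb away; the number above a bar is the total within 50 kb. Pax3 reaches 14 and Pax9 10, while Pax8, Pax7, Pax4 and Pax6 are at 0.

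Pax4 and Pax6, the pair of pancreas, eye and forebrain, had no MNase peak within 50 kb. Pax6 spans 29.5 kb of chromosome 2 (105668896 to 105698410). Its nearest MNase peak, of 450 bp, was 388 kb above it, in Dcdc5, and the next below was 2859 kb away, which left the gene in an interval of 3.28 Mb free of MNase peaks. That distance is ordinary for the list: 55.1% of coding genes were at least as far from a peak, and the median coding gene was 462 kb from one. Pax4, the endocrine pancreas factor, of 7.01 kb on chromosome 6 (28442334 to 28449340), lay 306 kb from the nearest MNase peak, which crossed a boundary of Grm8, inside an interval of 3.61 Mb without peaks. Of coding genes, 61.5% were at least as far.

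Pax6 thus had 0 MNase peaks where the other 8 Pax genes had a mean of 3 and a median of 1.5 within 5 kb, and 5 of those 8 had at least 1. Pax4, Pax7 and Pax8, genes of other lineages, were also at 0, so Pax6 was not alone among them. The comparison sets 1 gene beside 8 and was not tested. A gene missing from the list had no called peak, which does not show absence of binding at this unknown depth. In order of length, the genes were Pax4, Pax1, Pax9, Pax6, Pax8, Pax2, Pax3, Pax7 and Pax5, from 7.01 to 186 kb. They had 0, 2, 7, 0, 0, 5, 9, 0 and 1 MNase peaks within 5 kb. An effect of gene length was not tested.

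MNase peaks at the Pax genes included none of the smallest width. Within 5 kb there were 24 peaks, from 450 to 1950 bp wide, with a median of 600 bp and a mean of 812 bp ± 419 (SD, 24 peaks). All 2828 autosomal MNase peaks had a median of 450 bp and a mean of 620 bp ± 803 (SD, 2828 peaks). At least 900 bp was reached by 10 of the 24 Pax peaks (41.7%) and by 14.9% of autosomal peaks. The smallest width, 300 bp, was that of 0 Pax peaks within 5 kb and of 38.1% of autosomal peaks. The autosomal peaks were not limited to those near coding genes, so the sets differ in kind. Pax3, Pax9 and Pax2 gave 9, 7 and 5 of the 24 Pax peaks. Peaks of one gene share their neighbourhood and are not replicates, so widths are given as a description. Since no Pax peak within 5 kb is 300 bp wide, limiting the list to wider peaks could not change the 5 of 9 Pax genes. That limit left 4.03% of coding genes with a peak within 5 kb.

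The sonication list had no peak at any Pax gene. Of the 9 genes, 0 had one in the span, within 5 kb or within 50 kb, where 2.92%, 3.38% and 7.84% of coding genes did. A count of 0 of 9 is close to that background and is no result about the family. Just beyond 50 kb, Pax3 had a sonication peak of 300 bp at 54.3 kb above it, and Pax6 had one at 55.8 kb above it, from 105754201 to 105754500. Of coding genes, 91.7% and 91.6% were at least as far from a sonication peak as Pax3 and Pax6. The peak nearest to Pax6 lay in Elp4, the neighbour whose introns are known to carry Pax6 enhancers. The gene spans used give no exons, so its place in Elp4 was not determined, and a link to Pax6 was not tested. Pax4 was 171 kb, Pax9 406 kb and Pax2 657 kb from the nearest sonication peak. Pax8, Pax1, Pax7 and Pax5 were farthest, at 1178, 1856, 2387 and 4247 kb. The median over the 9 genes was 657 kb and that over coding genes 741 kb. All 9 genes are autosomal, and only 2 of the 11 broad domains the authors deposited are. None of the 9 lay in one, where 0.0924% of 20560 autosomal coding genes did, so that the count is near the background and no result about the family.

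**Figure D4:**
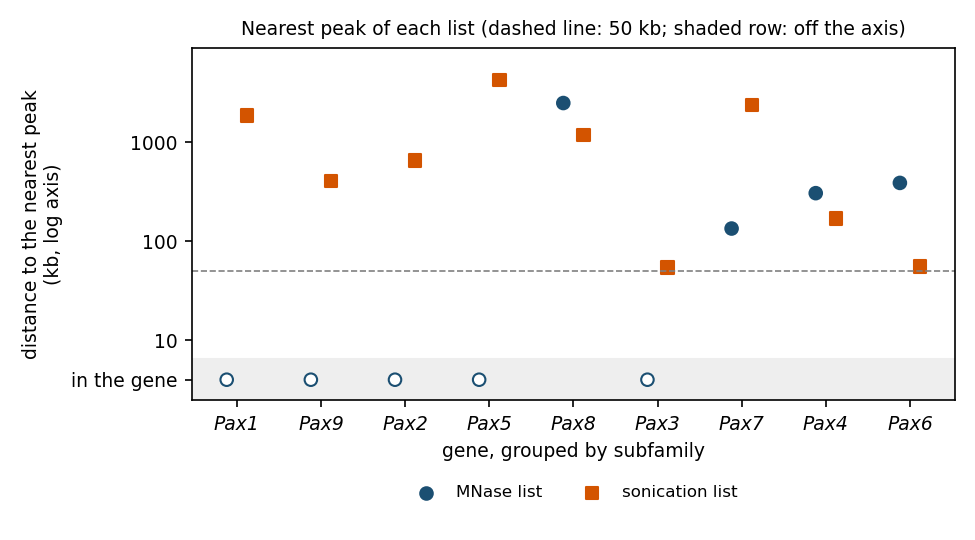
Points give the distance from each Pax gene to the nearest MNase peak (circles) and sonication peak (squares) in kb on a log axis; open circles in the shaded row, which is off the axis, are genes with an MNase peak inside. Of the 9 genes, 5 sit in that row for MNase, and all squares lie above the dashed line at 50 kb.

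Genes that work with Pax proteins were counted in lists drawn up from general knowledge, beside the 5.28% of all coding genes with an MNase peak within 5 kb and the 3.38% with a sonication peak. Among the partners of Pax factors in the network of Eya, Dach and sine oculis-related homeobox genes, 3 of 12 (25%) had an MNase peak within 5 kb, among them Six6 with 1 of 750 bp and Six3 with 2 of up to 450 bp. The last family acts in development of sensory organs, kidney and forebrain. Neither the 4 Eya genes, which encode phosphatase co-activators, nor the Dach genes, which encode corepressors, had one. Dach2, of 539 kb on the X, had 3 sonication peaks and Dach1, of 383 kb, had 1, so 2 of 12 partners (16.7%) were in the sonication list. They are the longest of the partners, with 5.47 and 2.55 sonication peaks per Mb. The share of all coding genes was not matched to them in length. Of the known downstream genes of Pax factors, 3 of 22 (13.6%) had an MNase peak within 5 kb. These were the neurogenic gene Neurog2, downstream of Pax6, with 2 of up to 1050 bp, the sclerotome gene Nkx3-2, downstream of Pax1 and Pax9, with 1 of 600 bp, and the B cell gene Ebf1 with 1 of 300 bp. In the sonication list, 1 of 22 (4.55%), the pigment cell gene Mitf, had a peak of 300 bp, a share near the 3.38% of all coding genes.

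Genes active in neural stem cells, Pax6 among them, had an MNase peak within 5 kb at 2 of 15 (13.3%), beside 5.28% of all coding genes. A sonication peak was at 0 of 15, near the 3.38% of all coding genes. Sox2, the stem cell factor, had 2 MNase peaks of up to 750 bp, the nearest 1.20 kb from the gene. The median number of MNase peaks within 5 kb was 0 in each of these 3 lists and over all coding genes, and 1 over the Pax genes. No difference between the lists was tested.

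**Figure D5:**
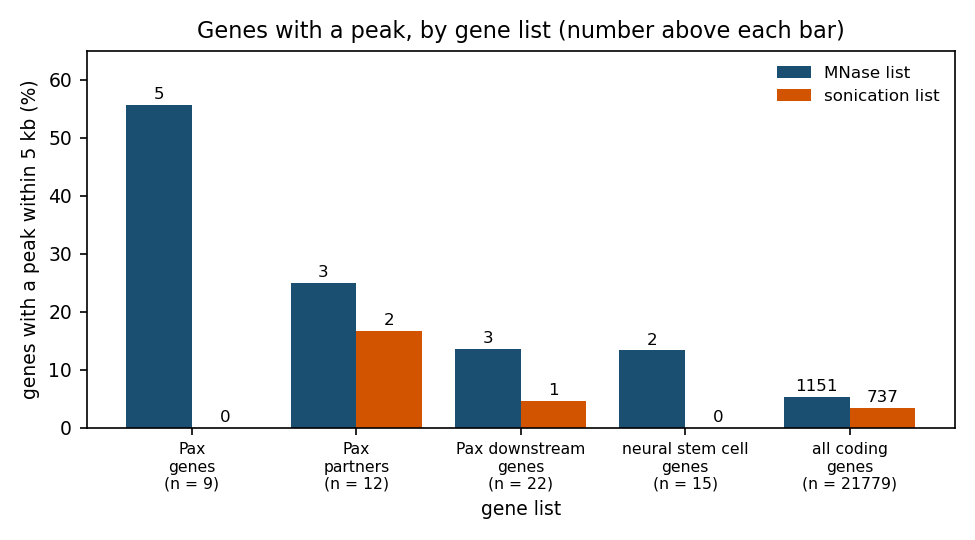
Bars give the percentage of genes with a peak within 5 kb in each gene list and over all coding genes, for the MNase and the sonication list, with the number of genes above each bar. The Pax genes reach 55.6% in the MNase list and 0 in the sonication list, beside 5.28% and 3.38% of all coding genes.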

How the data were processed

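The submitters' processing notes name bcl2fastq, Bowtie 0.12.9 and MACS2 as tools and mm10 as build; their roles and order were not known here. The authors deposited a peak list for each experiment, which the labels of all its libraries name, and a list of broad domains; the sources used here do not state how wild-type and input libraries entered them. The lists are annotated probe reports, per the file headers, and cells of the MNase list name SeqMonk. Only positions in base pairs were used, because the value column was empty. Peak boundaries fall on steps of 150 bp and no peak is narrower than 300 bp, so widths and gaps carry that step.

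Gene spans came from the RefSeq table (GRCm38.p6), without strand or exons; 340 records in the first 3 Mb of a chromosome were left out. Peaks overlapping a span by 1 bp, or within 5 or 50 kb of it, were counted with Python 3.11.15 and pandas 2.3.3, by functions tested on simulated data. No p-value was computed. Members and lists were chosen with earlier results of these data known. Named genes were the 9 Pax genes, neighbours at their peaks, list members with a peak within 5 kb, and the 5 genes with a peak number within 1 of Pax3 and the closest length. Non-coding genes, genes at the nearest peaks and the neighbours of Pax9 were named after their values were seen. Some genes the rule selects are left out of the text. Alternatives were peaks wider than 300 bp, at least 50% of a peak in the window, no flank, flanks of 10 and 50 kb, and merged peaks.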

Additional observations from a re-analysis of the deposited data

How the results depend on the processing

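Of 89 alternative values over 15 results, 80 stayed within 1.5 times of the reported value. These values are not independent. The counts for single Pax genes, their total and the mean without Pax6 come from the same peaks, and some counts are 0 in every setting. The number of Pax genes with an MNase peak (5) and with a sonication peak (0) was the same under all 5 alternatives tried for it. The peak positions fixed this in advance, so it is no sign of stability. Each of the 5 genes has a peak wider than 300 bp lying wholly inside it. Pax4, Pax6, Pax7 and Pax8 have no MNase peak within 50 kb, and no Pax gene has a sonication peak that near. The 24 MNase peaks within 5 kb ranged from 17, with peaks up to 1 kb apart merged, to 34, with a flank of 50 kb; at Pax9 the merging left 4 of 7. Without a flank, 1 of 22 downstream genes and 1 of 15 neural stem cell genes had an MNase peak. Both counts are near the 4.13% of all coding genes with one and are no result about these lists. With a flank of 50 kb, 5 of 12 partners and 4 of 15 neural stem cell genes had an MNase peak, beside 11.3% of all coding genes. A sonication peak in that window was at 2 of 22 downstream genes, near the 7.84% of all coding genes. The MNase peak counted in that window for the partner Six2 lies in its neighbour Six3, so these partners share a peak. With only peaks wider than 300 bp, 1 of 12 partners and 0 of 22 downstream genes had a sonication peak. The share of all coding genes under this limit was not counted for the sonication list. No paired analysis was possible because the lists hold no value per library, and for the same reason no replicate could be left out. Depth per library is unknown, so what a missing peak means could not be judged.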
